A study of Mus musculus with 4 samples.

Results

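The mitosis and spindle genes are 40 genes whose products carry a cell from the end of DNA replication through chromosome segregation to the separation of the daughter cells. They were chosen by exact match of the gene symbol, and all 40 were found among the 20611 symbols of the count tables. All 40 passed the filter on low counts, with raw counts from 74 to 4355 per gene and library. By role they comprised 10 cyclins, kinases and their direct partners, 8 genes of the spindle checkpoint and anaphase, 7 of the centromere and kinetochore, 5 motor proteins, 7 of spindle microtubules and cytokinesis, 2 of the chromosome surface and structure, and the transcription factor gene Foxm1.

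RNA was sequenced from whole back skin of male BALB/c mice, 8 to 9 weeks old, all of which were given a daily 47 mg of 5% cream with imiquimod (IMQ) from day 1 until day 5, with skin taken on day 6. The IMQ+IDMF group (1 library) also received a lotion with IDMF, short for isosorbide di-(methyl fumarate), which is a dimethyl fumarate pro-drug. The IMQ+VEH group (2 libraries, replicates 1 and 2) received the placebo lotion, and the IMQ group (1 library) received the cream alone. Lotions followed the cream by about 1 h. Imiquimod activates Toll-like receptor 7 and produces a psoriasis-like dermatitis in mice, in which the epidermis thickens and its basal cells divide more often. Every library came from imiquimod-treated skin and none from untreated skin, so the levels in resting skin were not measured here. The comparisons ask how skin given the IDMF lotion differed from skin given the placebo lotion, and how skin given the placebo lotion differed from skin given the cream alone.

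Entry into mitosis is driven by cyclin B bound to the kinase CDK1. Kinetochores then attach chromosomes to spindle microtubules, and the spindle checkpoint holds back the anaphase-promoting complex until all are attached. That ubiquitin ligase then marks cyclin B and securin for destruction, separase cuts the rings that hold sister chromatids, and the cytokinesis machinery divides the cell. In skin these genes are active mainly in dividing basal keratinocytes and in the matrix of growing hair follicles. Their transcription peaks together in late cell cycle, through promoters that often carry a cell cycle homology region (CHR, TTTGAA), bound by the MuvB complex with B-MYB or FOXM1, and CCAAT boxes, bound by NF-Y.

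Promoters were available for 34 of the 40 genes in RefSeq tables of the build GRCm38.p6, as 250 bases before and 50 bases from the annotated gene start. The other 6 were Ccna2, Aurkb, Tpx2, Kif20a, Cdc25c and Foxm1. The CHR letters TTTGAA, on either strand, were in 25 of the 34 promoters (73.5%), against 18.1% of the 27025 promoters in the table. A CCAAT box, on either strand, was likewise in 25 (73.5%), against 37.9% of all promoters. Both were in 22 (64.7%), against 7.12% of all. The variant TTTAAA was in 9 (26.5%), against 13.2% of all. Of the genes set beside the members further on, 36 of 61 promoters of other mitosis genes, 4 of 38 of S phase genes and 0 of 7 of G1 cyclins and kinases held TTTGAA. So did 6 of 15 of hair matrix and follicle genes. CCAAT was in 41 of 61, 23 of 38 and 3 of 7 promoters of those cell cycle lists. It was in 13 of 19 of inhibitors and G2 brakes, so CCAAT was not particular to the members. These are matches of letters in a fixed window and not measured binding sites.

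**Figure D1:**
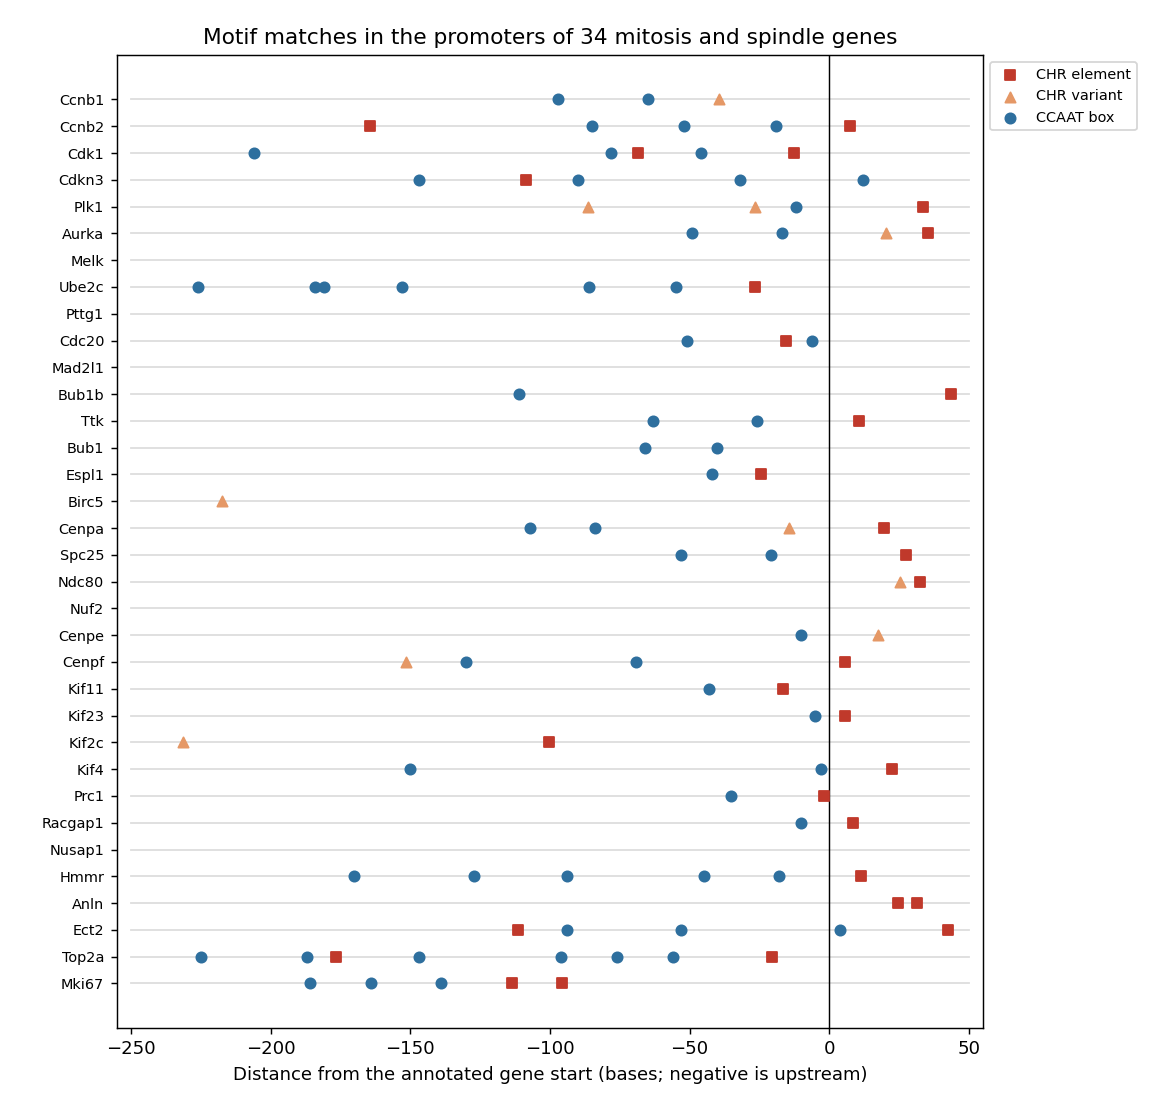
Motif matches in the promoters of 34 mitosis and spindle genes, by distance in bases from the annotated gene start (negative is upstream). Squares are TTTGAA, triangles the variant TTTAAA and circles CCAAT, each on either strand; 22 genes carry both TTTGAA and CCAAT, and 6 carry neither.

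The stretch from 120 bases before to 15 bases from the gene start is printed 5′ to 3′ on the strand of the gene. It is given for cyclin B genes, their kinase, 2 genes whose products work with the anaphase-promoting complex, a motor and Top2a. Hmmr, Pttg1 and Nusap1 are added as 3 of the 6 members whose log2 fold change for IMQ+IDMF against IMQ+VEH, given further on, was below 0. The other 3 are not printed: Ttk and Spc25 carry TTTGAA and CCAAT, and Cenpe carries TTTAAA and CCAAT. Capitals mark the CHR element (TTTGAA, which reads TTCAAA when it lies on the opposite strand), the CHR variant with TTTAAA as its letters, and the CCAAT box, which reads ATTGG on the opposite strand.
Ccnb1: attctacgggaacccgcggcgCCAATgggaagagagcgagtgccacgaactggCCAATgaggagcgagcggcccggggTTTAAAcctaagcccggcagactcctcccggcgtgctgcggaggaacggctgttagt
Ccnb2: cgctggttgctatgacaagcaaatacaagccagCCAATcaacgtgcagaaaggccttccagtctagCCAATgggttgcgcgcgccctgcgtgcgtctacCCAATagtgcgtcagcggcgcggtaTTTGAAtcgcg
Cdk1: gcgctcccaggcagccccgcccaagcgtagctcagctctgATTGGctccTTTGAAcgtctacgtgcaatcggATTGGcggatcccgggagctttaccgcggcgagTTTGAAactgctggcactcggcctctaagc
Cdc20: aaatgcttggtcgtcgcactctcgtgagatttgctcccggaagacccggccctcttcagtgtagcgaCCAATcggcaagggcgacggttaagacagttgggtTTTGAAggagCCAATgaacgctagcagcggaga
Ube2c: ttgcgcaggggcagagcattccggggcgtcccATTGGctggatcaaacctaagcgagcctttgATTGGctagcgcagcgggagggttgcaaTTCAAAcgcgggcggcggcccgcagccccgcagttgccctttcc
Kif11: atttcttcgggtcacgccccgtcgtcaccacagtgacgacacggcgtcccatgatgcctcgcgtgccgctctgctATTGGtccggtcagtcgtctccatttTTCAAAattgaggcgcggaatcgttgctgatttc
Top2a: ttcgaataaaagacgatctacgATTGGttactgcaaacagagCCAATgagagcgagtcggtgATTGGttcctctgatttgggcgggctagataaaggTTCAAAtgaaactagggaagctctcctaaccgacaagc
Hmmr: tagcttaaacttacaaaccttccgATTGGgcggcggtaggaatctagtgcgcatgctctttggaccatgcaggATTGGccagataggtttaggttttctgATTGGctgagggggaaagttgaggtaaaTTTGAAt
Pttg1: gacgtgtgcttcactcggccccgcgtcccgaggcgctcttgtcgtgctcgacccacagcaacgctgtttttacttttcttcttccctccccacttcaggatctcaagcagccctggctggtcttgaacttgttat
Nusap1: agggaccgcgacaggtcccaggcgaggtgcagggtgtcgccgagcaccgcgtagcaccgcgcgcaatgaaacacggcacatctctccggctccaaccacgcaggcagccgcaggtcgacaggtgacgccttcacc
In GRCm38.p6 these lie at chr13:100786472-100786606 (Ccnb1, minus strand), chr9:70421540-70421674 (Ccnb2, minus), chr10:69352898-69353032 (Cdk1, minus), chr4:118437329-118437463 (Cdc20, minus) and chr2:164769809-164769943 (Ube2c, plus). The others lie at chr19:37376262-37376396 (Kif11, plus), chr11:99024175-99024309 (Top2a, minus), chr11:40733423-40733557 (Hmmr, minus), chr11:43425967-43426101 (Pttg1, minus) and chr2:119618178-119618312 (Nusap1, plus). Ccnb1 carried the variant TTTAAA, starting 42 bases before the gene start, in place of TTTGAA. Cdk1 carried TTTGAA at 2 places in the stretch shown, starting 71 and 15 bases before the start. Pttg1 and Nusap1 carried none of these letters in the 300-base window. For Pttg1 the annotation GENCODE M21 places the gene start farther upstream, at chr11:43426251. The Pttg1 window lies inside that longer gene, so a promoter at the upstream start was not searched.

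The libraries held 21991604 counts for IMQ+IDMF, 26639628 and 21167149 for IMQ+VEH, and 26337985 for IMQ. The 40 genes together took 0.0880% of the counts for IMQ+IDMF, 0.0884% and 0.0659% for IMQ+VEH, and 0.115% for IMQ. At this depth the counting error (1 SD) was 11.6% for the smallest count of a member and 1.51% for the largest, and covers counting only, since reads carried no molecular identifiers. Levels are given as CPM (counts divided by the TMM-scaled library size and put on the usual scale of counts per 1e6), which compares libraries for 1 gene. Levels are set between genes only by the mean over the 4 libraries of the deposited FPKM, which is per transcript length. By that measure the members ran from 1.39 FPKM for Cenpf to 25.2 FPKM for Ube2c, with a median of 4.65 FPKM.

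Summed over the 40 genes, the level was 865.6 CPM in IMQ+IDMF, 839.5 and 680.4 CPM in IMQ+VEH, and 1194 CPM in IMQ. IMQ+IDMF stood at 72.5% of IMQ, and the IMQ+VEH libraries at 70.3% and 57.0% of it. The sum in IMQ+IDMF was thus 103% of that in IMQ+VEH replicate 1 and 127% of that in replicate 2. Whole skin was sequenced, so fewer dividing cells and less RNA per dividing cell cannot be told apart.

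**Figure D2:**
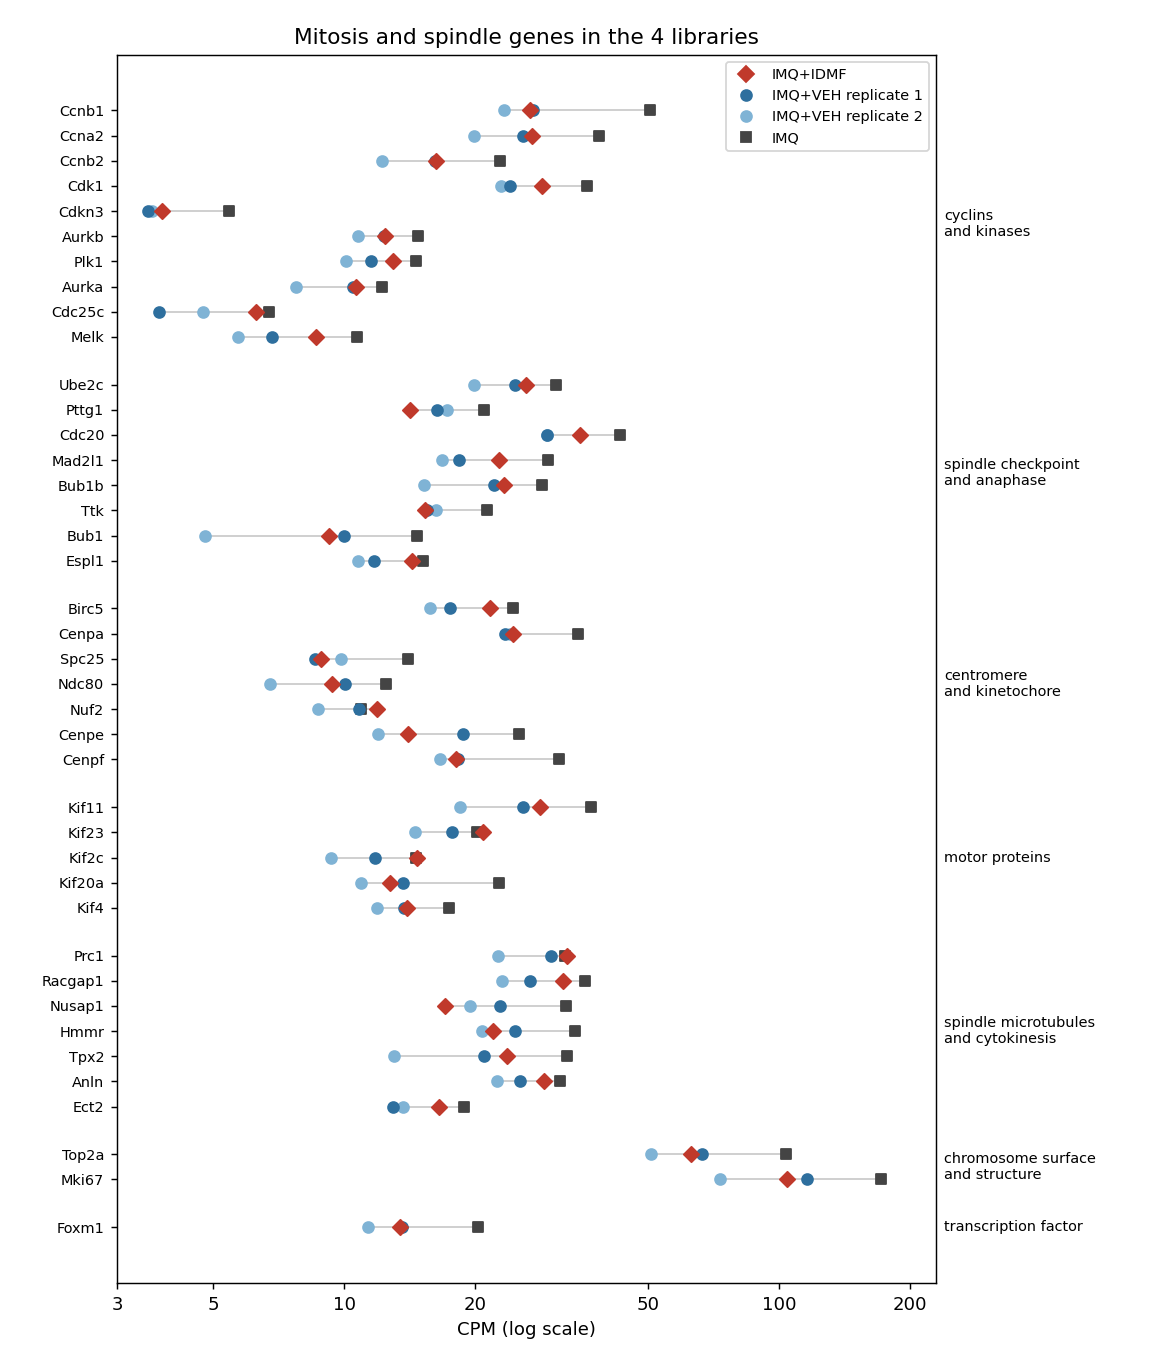
Level of each of the 40 genes in the 4 libraries, in CPM on a log scale, grouped by role. Diamonds are IMQ+IDMF, dark and light circles IMQ+VEH replicates 1 and 2, squares IMQ, and a grey line joins the lowest and the highest library; the square lies farthest right for 36 genes and the light circle farthest left for 31.

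No member passed the test between IMQ+IDMF and IMQ+VEH. The edgeR quasi-likelihood test, adjusted over all 15068 tested genes at a threshold of 0.05, called 0 members and 0 genes in all (0%). At an unadjusted p under 0.05 there were 306 genes and 0 members, and DESeq2 also called 0 genes. The smallest unadjusted p of a member by edgeR was 0.19, and every member's adjusted p was 1. The log2 fold changes of the members ran from −0.31 for Nusap1 to 0.57 for Cdc25c, with standard errors (SE) of 0.27 to 0.54, and 29 of the 40 were smaller than their own SE, beside 81.9% of all tested genes. Their median was 0.24, or 118% of IMQ+VEH, beside −0.01 over all tested genes. The median was 0.07 against IMQ+VEH replicate 1 alone and 0.38 against replicate 2 alone, and 13 members were lower in IMQ+IDMF than in replicate 1 against 4 for replicate 2. The labels describe the libraries as separate biological replicates, but IMQ+VEH alone has more than 1. Each p therefore rests on the spread within that pair, moderated heavily by the spread borrowed across all genes.

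Between IMQ+VEH and IMQ, all 40 members were lower in both IMQ+VEH libraries, as were 35.0% of all tested genes, and no member passed the test. edgeR called 100 genes (0.664%), 51 higher and 49 lower in IMQ+VEH, and 0 members. Unadjusted p was under 0.05 for 1327 genes, among them 10 members, which were Mki67, Top2a, Ccna2, Ccnb1, Cdk1, Cenpf, Tpx2, Kif11, Kif20a and Mad2l1. DESeq2 called 202 genes, 140 higher and 62 lower, and 0 members. Log2 fold changes ran from −1.0 for Ccnb1 to −0.17 for Nuf2, with SE of 0.27 to 0.53, and adjusted p by edgeR from 0.192 to 0.994. Their median was −0.60, or 66.2% of IMQ, beside 0.00 over all tested genes, where 49.7% of values were below 0. Without the filter on low counts, 1 member, Ccnb1, passed with a log2 fold change of −1.0 (adjusted p = 0.0436, edgeR), in a test that then called 424 genes, 310 higher and 114 lower. The contrast rests on 1 IMQ library, and it shares the IMQ+VEH libraries with the contrast before it, so a member low in that pair is pushed down in one and up in the other.

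**Figure D3:**
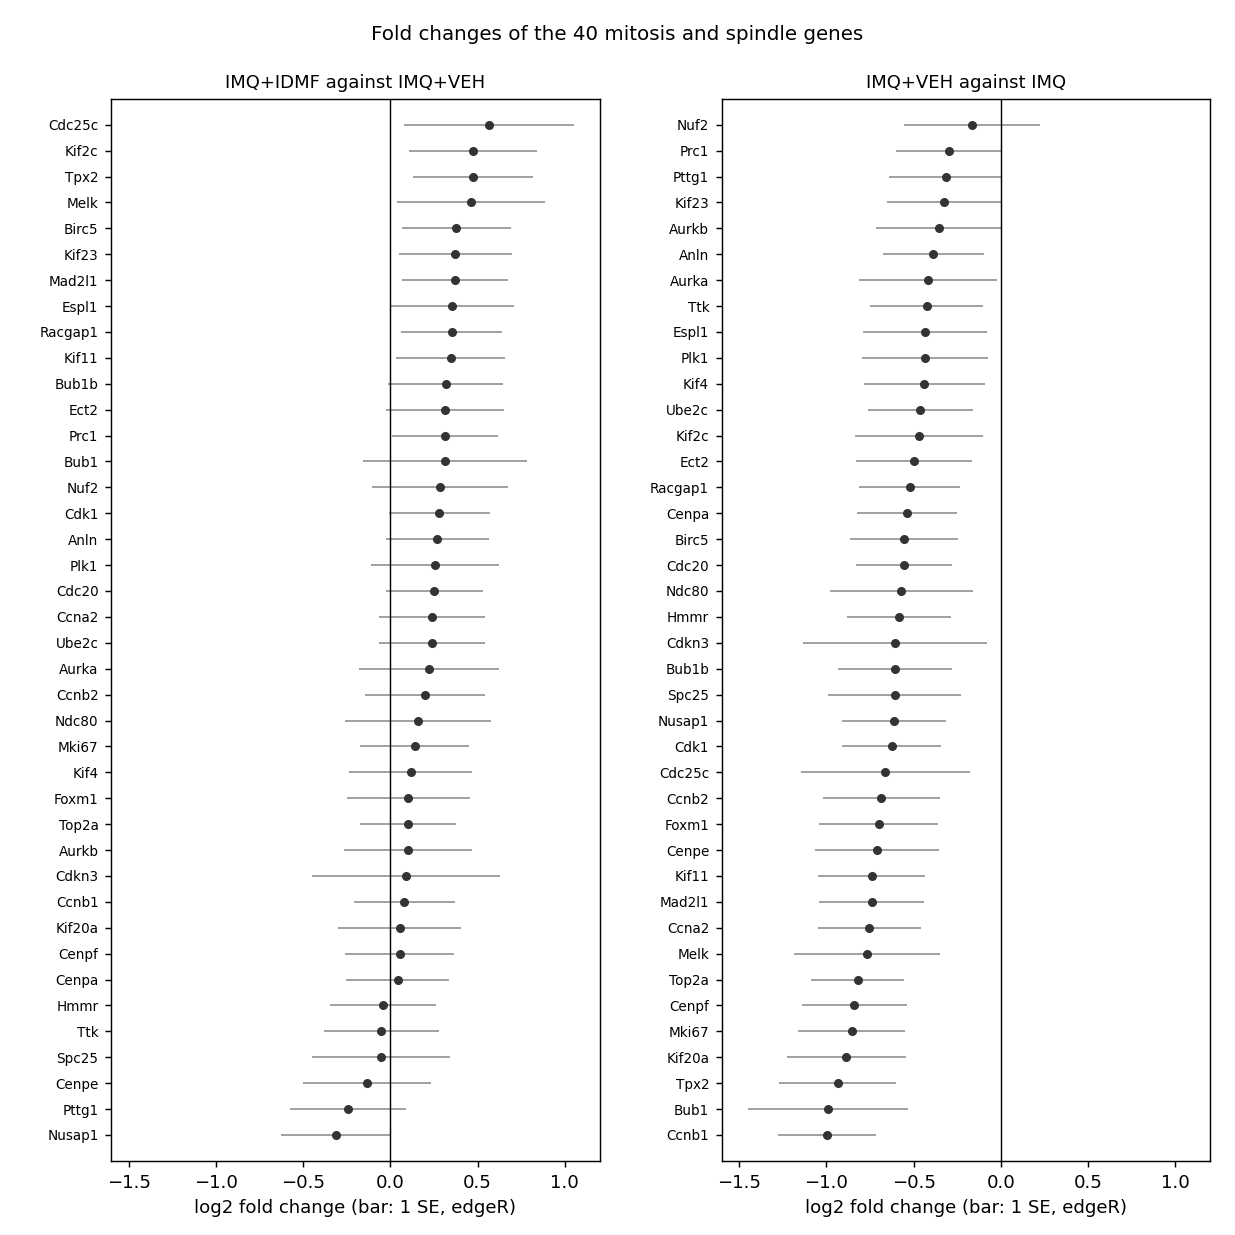
Log2 fold changes of the 40 genes with bars of 1 SE (edgeR), IMQ+IDMF against IMQ+VEH on the left and IMQ+VEH against IMQ on the right, each ordered by size. On the left 34 points lie above 0 and most bars reach or nearly reach 0; on the right all 40 lie below 0, from −1.0 for Ccnb1 to −0.17 for Nuf2.

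IMQ+IDMF against IMQ was 1 library against 1, so only sizes are given. In IMQ+IDMF 36 of the 40 members were lower than in IMQ, beside 49.8% of all tested genes. The median log2 difference was −0.38, or 76.7% of IMQ, and the range was −0.92 for Nusap1 to 0.12 for Nuf2. The 4 members at or just above their IMQ level were Nuf2, Kif23, Prc1 and Kif2c, the last by 0.01.

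The libraries ranked in a few recurring orders. IMQ was the highest library for 36 of the 40 members, beside 30.1% of all tested genes. IMQ+VEH replicate 2 was the lowest for 31, beside 23.8% of all, and lay below replicate 1 for 32, beside 53.0%. IMQ+IDMF lay above both IMQ+VEH libraries for 26 members, beside 27.7% of all tested genes. It lay below both for 3, namely Pttg1, Ttk and Nusap1, beside 27.5%, and between them for the other 11. Any margin counted, however small: Aurkb in IMQ+IDMF was above replicate 1 by a log2 difference of 0.002, and Ccnb2 by 0.01. The order IMQ, IMQ+IDMF, IMQ+VEH replicate 1, IMQ+VEH replicate 2, from high to low, held for 17 members, beside 4.21% of all genes. The order IMQ, IMQ+VEH replicate 1, IMQ+IDMF, IMQ+VEH replicate 2 held for 10, beside 5.76%, and 13 members had another order. These genes share the same 4 libraries and tend to move together within a cell, so the 40 are not 40 independent observations.

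The IMQ+VEH pair differed by a median of −0.24 (log2, replicate 2 minus replicate 1), from −1.05 for Bub1 to 0.33 for Cdc25c. For 26 members IMQ+IDMF lay nearer to replicate 1 than replicate 2 did, beside 58.7% of all tested genes. For 29 members the smaller of the gaps between IMQ and an IMQ+VEH library was larger than the difference within the pair, and for 11 it was not. Of all tested genes, 17.8% had both IMQ+VEH libraries below IMQ by more than the pair differed.

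Among the cyclins and kinases, summed levels were 153 CPM in IMQ+IDMF, 142 and 121 CPM in IMQ+VEH, and 212 CPM in IMQ. Ccnb1 encodes cyclin B1, the partner of CDK1 at mitotic entry. It had 26.7 CPM in IMQ+IDMF, 27.2 and 23.3 CPM in IMQ+VEH and 50.4 CPM in IMQ. The 3 libraries with lotion lay close together and IMQ stood apart. Its log2 fold change of −1.0 (SE 0.28, adjusted p = 0.192, edgeR) for IMQ+VEH against IMQ was the lowest of the 40. Ccna2, cyclin A2, which serves both S phase and early mitosis, had 27.0 CPM in IMQ+IDMF, 25.8 and 19.9 CPM in IMQ+VEH and 38.5 CPM in IMQ. Cdk1 itself had 28.6 CPM in IMQ+IDMF, 24.1 and 23.0 CPM in IMQ+VEH and 36.3 CPM in IMQ, so IMQ+IDMF lay between the close IMQ+VEH pair and IMQ. Ccnb2, the second B-type cyclin, had 16.3 CPM in IMQ+IDMF, 16.2 and 12.2 CPM in IMQ+VEH and 22.8 CPM in IMQ.

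Cdc25c encodes a phosphatase that removes inhibitory phosphates from CDK1. It had 6.26 CPM in IMQ+IDMF, 3.74 and 4.73 CPM in IMQ+VEH and 6.70 CPM in IMQ. IMQ+IDMF was near IMQ and above both IMQ+VEH libraries, and the log2 fold change against IMQ+VEH, 0.57 (SE 0.49), was the highest of the members and little more than its SE. It is among the lowest members in counts, from 97 to 170, and 12.7% of its exon bases overlap a gene on the other strand. The mitotic kinase genes Plk1, Aurka and Aurkb, the last of which encodes the catalytic part of the chromosomal passenger complex, differed less. Their log2 fold changes were 0.10 to 0.25 for IMQ+IDMF against IMQ+VEH and −0.44 to −0.35 for IMQ+VEH against IMQ, with SE of 0.36 to 0.40. Melk, a kinase gene of proliferating cells, stood at 0.46 (SE 0.42) and −0.77 (SE 0.42). Cdkn3, a phosphatase gene whose product acts on CDK kinases, had the lowest counts of the list, 74 to 138, and the widest SE, 0.54, around 0.09.

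The checkpoint and anaphase genes summed to 160.3 CPM in IMQ+IDMF, 148 and 130.2 CPM in IMQ+VEH and 204 CPM in IMQ. Ube2c, the ubiquitin-conjugating enzyme of the anaphase-promoting complex, had 26.2 CPM in IMQ+IDMF, 24.7 and 19.9 CPM in IMQ+VEH and 30.7 CPM in IMQ. Pttg1 encodes securin, the inhibitor of separase. It had 14.2 CPM in IMQ+IDMF, 16.4 and 17.2 CPM in IMQ+VEH and 20.9 CPM in IMQ. It was lowest in IMQ+IDMF, with a log2 fold change of −0.24 (SE 0.33) against IMQ+VEH. Espl1, the gene for separase itself, had 14.3 CPM in IMQ+IDMF, 11.7 and 10.7 CPM in IMQ+VEH and 15.2 CPM in IMQ. Securin and separase therefore stood on opposite sides of the IMQ+VEH pair in the IMQ+IDMF library, each by less than its SE.

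Bub1 encodes a kinase of the checkpoint at the kinetochore. It had 9.21 CPM in IMQ+IDMF, 9.98 and 4.78 CPM in IMQ+VEH and 14.7 CPM in IMQ. The IMQ+VEH pair was farther apart for Bub1 than for any other member, so its log2 fold change of −0.99 against IMQ (SE 0.46, adjusted p = 0.568, edgeR), the second lowest, joins a log2 difference of −1.61 in replicate 2 with a smaller one in replicate 1. Cdc20, the activator of the anaphase-promoting complex, showed the reverse: 34.9 CPM in IMQ+IDMF, 29.2 and 29.3 CPM in IMQ+VEH and 43.1 CPM in IMQ. With that close pair, the model's SE of 0.28, borrowed across genes, was larger than the pair's own spread. Mad2l1 and Bub1b, which encode subunits of the checkpoint complex that binds CDC20, lay above both IMQ+VEH libraries in IMQ+IDMF. Their log2 fold changes against the IMQ+VEH group were 0.37 (SE 0.31) and 0.32 (SE 0.33). Over replicate 1 alone the log2 differences were 0.31 for Mad2l1 and only 0.07 for Bub1b. Ttk, the kinase gene that starts checkpoint signalling, had 15.3 CPM in IMQ+IDMF, 15.5 and 16.3 CPM in IMQ+VEH and 21.4 CPM in IMQ.

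Centromere and kinetochore genes summed to 108 CPM in IMQ+IDMF, 107 and 93.6 CPM in IMQ+VEH and 153 CPM in IMQ. Birc5, survivin, a subunit of the chromosomal passenger complex, had 21.6 CPM in IMQ+IDMF, 17.5 and 15.8 CPM in IMQ+VEH and 24.4 CPM in IMQ. IMQ+IDMF lay nearer to IMQ than to either IMQ+VEH library. Cenpa, the histone H3 variant that marks centromeres, had 24.5 CPM in IMQ+IDMF, 23.5 and 24.1 CPM in IMQ+VEH and 34.5 CPM in IMQ, so the 3 libraries with lotion were nearly level. Cenpe, a kinesin gene of the kinetochore, had 14.0 CPM in IMQ+IDMF, 18.8 and 12.0 CPM in IMQ+VEH and 25.2 CPM in IMQ. IMQ+IDMF lay inside the wide pair, and its log2 fold change of −0.14 (SE 0.37) was the third lowest. Cenpf, which encodes a large kinetochore protein, had 18.1 CPM in IMQ+IDMF, 18.3 and 16.6 CPM in IMQ+VEH and 31.2 CPM in IMQ.

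Ndc80, Nuf2 and Spc25 encode subunits of the complex that holds microtubule ends at the kinetochore. Nuf2 had 11.9 CPM in IMQ+IDMF, 10.8 and 8.68 CPM in IMQ+VEH and 10.9 CPM in IMQ. The levels were close, and its log2 fold change for IMQ+VEH against IMQ, −0.17 (SE 0.39, adjusted p = 0.994, edgeR), was the nearest to 0 of the members. For its partners Ndc80 and Spc25 IMQ was the highest library, with log2 fold changes of −0.57 (SE 0.41) and −0.61 (SE 0.38) for IMQ+VEH against IMQ. The differences between these partners were not tested.

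The motor protein genes summed to 90.4 CPM in IMQ+IDMF, 82.6 and 65.1 CPM in IMQ+VEH and 112 CPM in IMQ. Kif11 encodes the kinesin that pushes spindle poles apart. It had 28.2 CPM in IMQ+IDMF, 25.8 and 18.4 CPM in IMQ+VEH and 37.0 CPM in IMQ. Kif23, a kinesin gene of the central spindle, had 20.9 CPM in IMQ+IDMF, 17.7 and 14.5 CPM in IMQ+VEH and 20.2 CPM in IMQ. Kif2c encodes a kinesin that takes microtubules apart at centromeres. It had 14.7 CPM in IMQ+IDMF, 11.8 and 9.32 CPM in IMQ+VEH and 14.6 CPM in IMQ. For both Kif23 and Kif2c IMQ+IDMF was level with IMQ and above the IMQ+VEH pair, with log2 fold changes against that pair of 0.37 (SE 0.33) and 0.48 (SE 0.37). Kif20a, another kinesin gene of cytokinesis, differed from them, with 12.7 CPM in IMQ+IDMF, 13.6 and 10.9 CPM in IMQ+VEH and 22.7 CPM in IMQ. There 29.3% of exon bases overlap Cdc23 on the other strand. Kif4, a chromosome-bound kinesin gene, stood at log2 fold changes of 0.12 (SE 0.35) and −0.44 (SE 0.35) in the same comparisons.

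Genes of spindle microtubules and cytokinesis summed to 173 CPM in IMQ+IDMF, 163 and 135 CPM in IMQ+VEH and 217 CPM in IMQ. Prc1 encodes the protein that bundles microtubules of the central spindle. It had 32.6 CPM in IMQ+IDMF, 29.8 and 22.6 CPM in IMQ+VEH and 32.3 CPM in IMQ. Racgap1, its neighbour in the central spindle, had 31.8 CPM in IMQ+IDMF, 26.7 and 23.1 CPM in IMQ+VEH and 35.8 CPM in IMQ. Tpx2, the activator of Aurora A on the spindle, had 23.7 CPM in IMQ+IDMF, 21 and 13.0 CPM in IMQ+VEH and 32.6 CPM in IMQ. The low IMQ+VEH replicate 2 enters both Tpx2 values, a log2 fold change of 0.48 (SE 0.34) for IMQ+IDMF against IMQ+VEH and −0.94 (SE 0.34, adjusted p = 0.375, edgeR) for IMQ+VEH against IMQ. The genes Anln, for the contractile ring scaffold anillin, and Ect2, for the activator of RhoA in cytokinesis, lay above both IMQ+VEH libraries in IMQ+IDMF. Their log2 fold changes against the IMQ+VEH group were 0.27 (SE 0.29) and 0.31 (SE 0.34). Over the nearer library the log2 differences were 0.18 for Anln (replicate 1) and 0.28 for Ect2 (replicate 2).

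Nusap1 and Hmmr, whose products bind and organise spindle microtubules, stood at the other end. Nusap1 had 17.0 CPM in IMQ+IDMF, 22.8 and 19.5 CPM in IMQ+VEH and 32.4 CPM in IMQ. It was lowest in IMQ+IDMF, by a log2 fold change of −0.31 (SE 0.31) against IMQ+VEH, the lowest of the members. Hmmr had 22.1 CPM in IMQ+IDMF, 24.7 and 20.7 CPM in IMQ+VEH and 34.0 CPM in IMQ. The promoter of Hmmr printed above carries TTTGAA and CCAAT, and that of Nusap1 neither. Over the 25 genes with TTTGAA, median log2 values were 0.24 for IMQ+IDMF against IMQ+VEH and −0.54 for IMQ+VEH against IMQ. Over the 9 without it they were 0.29 and −0.71, and the ranges of the classes overlapped in both comparisons.

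Mki67 encodes Ki-67, the coat of mitotic chromosomes used as a stain for dividing cells, and Top2a the topoisomerase that untangles them. Mki67 had 104.5 CPM in IMQ+IDMF, 116 and 73.2 CPM in IMQ+VEH and 172 CPM in IMQ. Top2a had 62.9 CPM in IMQ+IDMF, 66.4 and 50.9 CPM in IMQ+VEH and 104 CPM in IMQ. In both IMQ+IDMF lay within the IMQ+VEH pair and IMQ above all, with log2 fold changes for IMQ+VEH against IMQ of −0.86 (SE 0.31, adjusted p = 0.372, edgeR) and −0.82 (SE 0.27, adjusted p = 0.307, edgeR). Foxm1, whose product drives late cell cycle transcription, had 13.4 CPM in IMQ+IDMF, 13.6 and 11.4 CPM in IMQ+VEH and 20.3 CPM in IMQ, in the same order as Mki67 and Top2a.

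Other lists of cell cycle genes were set beside the members as a description. Of 77 other mitosis genes, IMQ+IDMF lay above both IMQ+VEH libraries for 43, beside 27.7% of all tested genes. It lay below both for 2, beside 27.5%. Both IMQ+VEH libraries lay below IMQ for 68 of the 77, beside 35.0% of all tested genes. The median log2 values of this list were 0.20 for IMQ+IDMF against IMQ+VEH and −0.47 for IMQ+VEH against IMQ, with 0 called in either. The farthest were Cenpm (0.99, SE 0.54) and Kif18b (0.91, SE 0.44) in the first, and Shcbp1 (−1.25, SE 0.37, adjusted p = 0.233, edgeR) in the second. Of 48 S phase and replication genes, IMQ+IDMF lay above both IMQ+VEH libraries for 44, beside 27.7% of all tested genes. It lay above IMQ for 31 of the 48, beside 7559 of all 15068 tested genes. The S phase medians were 0.42 for IMQ+IDMF against IMQ+VEH, −0.32 for IMQ+VEH against IMQ and 0.08 for IMQ+IDMF against IMQ, with 0 called. The members stood at 0.24, −0.60 and −0.38. The highest for IMQ+IDMF against IMQ+VEH were Mcm10 (1.07, SE 0.45), needed for origins to fire, and Dtl (1.01, SE 0.37), whose product prevents re-replication. Per 100 CPM of S phase genes there were 76.9 CPM of the 40 members in IMQ+IDMF, 106 and 76.7 CPM in IMQ+VEH and 113 CPM in IMQ. IMQ+IDMF and IMQ+VEH replicate 2 were thus alike in this ratio, and IMQ+VEH replicate 1 and IMQ alike.

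**Figure D4:**
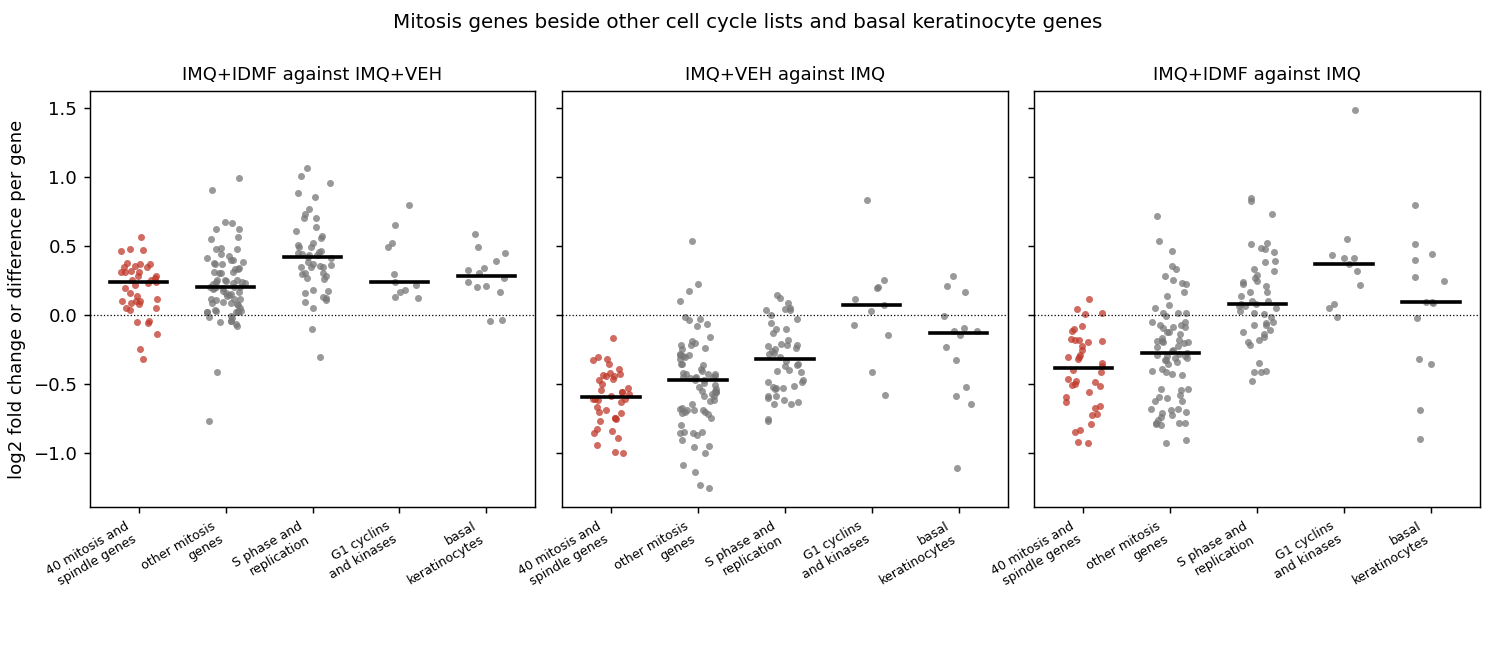
Log2 fold changes or differences per gene for the 40 mitosis and spindle genes and for other mitosis genes, S phase and replication genes, G1 cyclins and kinases, and basal keratinocyte genes; each point is 1 gene and the bar is the median. For IMQ+IDMF against IMQ the member median is −0.38 and the S phase median 0.08.

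The 22 genes of the DREAM, MuvB, E2F and NF-Y regulators had medians of 0.03 for IMQ+IDMF against IMQ+VEH and −0.10 for IMQ+VEH against IMQ. Of the 21 tested inhibitors and G2 brakes, with medians of 0.04 and −0.08, Chek1, a kinase gene that restrains mitotic entry, was farthest at 1.02 (SE 0.44) for IMQ+IDMF against IMQ+VEH. The 11 G1 cyclins and kinases had medians of 0.24 and 0.08, and 0.37 for IMQ+IDMF against IMQ. Ccnd2, cyclin D2, was at 95.9 CPM in IMQ+IDMF, 66.4 and 55.5 CPM in IMQ+VEH and 34.2 CPM in IMQ, so it was highest in IMQ+IDMF and lowest in IMQ. No gene of these lists was called in either test.

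Markers of cell types were read in the same libraries, and their part in the member levels was not tested. The 14 basal keratinocyte genes, all detected, summed to 13280 CPM in IMQ+IDMF, 10820 and 11390 CPM in IMQ+VEH and 17720 CPM in IMQ. Per 100 CPM of those genes the members took 6.52 CPM in IMQ+IDMF, 7.76 and 5.97 CPM in IMQ+VEH and 6.74 CPM in IMQ, so IMQ+IDMF and IMQ both lay within the IMQ+VEH pair. That sum, and with it the ratio, is led by Krt14, with 5334 CPM in IMQ+IDMF, 4540 and 4677 CPM in IMQ+VEH and 9905 CPM in IMQ. The place of IMQ within the pair depends on Krt14, and without that gene IMQ would lie above both IMQ+VEH libraries. The median log2 fold change of the basal list was only −0.13 for IMQ+VEH against IMQ, beside −0.60 for the members. For IMQ+IDMF against IMQ+VEH it was 0.29, beside 0.24 for the members. IMQ+IDMF lay above both IMQ+VEH libraries for 12 of the 14 basal genes, beside 27.7% of all tested genes. The hair matrix and follicle genes, 18 of 23 tested, were set apart in the same directions as the members. Their medians were 1.15 for IMQ+IDMF against IMQ+VEH and −2.17 for IMQ+VEH against IMQ. For IMQ+IDMF against IMQ the median log2 difference was −0.87. There 12 of the 18 were lower in IMQ+IDMF, beside 49.8% of all tested genes, and 6 were higher. Those 6 were Shh, Hoxc13, Lhx2, Msx2, Lef1 and Krt75. The sum over the hair list was 146 CPM in IMQ+IDMF, 97.7 and 114 CPM in IMQ+VEH and 223 CPM in IMQ. That sum is led by Dlx3, with 32.6 CPM in IMQ+IDMF, 32.4 and 38.6 CPM in IMQ+VEH and 53.9 CPM in IMQ. Krt75 ran against the list, with 28.5 CPM in IMQ+IDMF, 19.8 and 23.8 CPM in IMQ+VEH and 12.4 CPM in IMQ. Both IMQ+VEH libraries lay below IMQ for 17 of the 18 tested hair genes, beside 35.0% of all tested genes. Of all 15068 tested genes edgeR called 49 lower in IMQ+VEH, and 5 of them were in this list. Of these the inner root sheath genes Tchh (log2 fold change −2.77, adjusted p = 0.00695) and Krt73 (−3.75, adjusted p = 0.0173) were above the level asked of named genes. The others, Krt35 (adjusted p = 0.00458), Krt71 (0.000592) and Krt25 (0.00268), had larger fitted changes, but stood near 0 in the IMQ+VEH libraries, so no fold is given. The list's medians in both comparisons with IMQ+VEH were the same with Krt85, at 0 in both IMQ+VEH libraries, set at its bound of 3 counts over the group.

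The 14 suprabasal and cornifying keratinocyte genes summed to 49990 CPM in IMQ+IDMF, 44640 and 57830 CPM in IMQ+VEH and 58520 CPM in IMQ. Krt1 and Krt10 led that sum, with 18990 and 18280 CPM in IMQ+IDMF. Both IMQ+VEH libraries lay below IMQ for 12 of the 14, beside 35.0% of all tested genes, with a median of −0.44. IMQ+IDMF lay below IMQ for all 14, beside 49.8% of all tested genes. Some margins were slight: the log2 difference from IMQ was −0.002 for Krt10 in IMQ+IDMF and −0.007 for Krt1 in IMQ+VEH replicate 2. Sebaceous gland genes stood the other way: all 10 were above IMQ in both IMQ+VEH libraries, as were 5057 of all 15068 tested genes. The median of the sebaceous list for IMQ+VEH against IMQ was 0.97. Its sum was 4995 CPM in IMQ+IDMF, 4227 and 4255 CPM in IMQ+VEH and 1834 CPM in IMQ. Endothelial genes summed to 251 CPM in IMQ+IDMF, 355 and 173 CPM in IMQ+VEH and 162 CPM in IMQ.

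Of immune and stromal lists, neutrophil genes summed to 1790 CPM in IMQ+IDMF, 4582 and 2245 CPM in IMQ+VEH and 8770 CPM in IMQ. Nearly all of that sum was S100a8 and S100a9, which keratinocytes of inflamed skin also express. Without them the sum was 106 CPM in IMQ+IDMF, 118 and 131 CPM in IMQ+VEH and 131 CPM in IMQ. Genes of monocytes, macrophages and dendritic cells summed to 641 CPM in IMQ+IDMF, 1473 and 876 CPM in IMQ+VEH and 1009 CPM in IMQ. T and NK cell genes stayed low, at 19.3 CPM in IMQ+IDMF, 22.3 and 21.9 CPM in IMQ+VEH and 27.3 CPM in IMQ. Fibroblast genes summed to 2406 CPM in IMQ+IDMF, 6897 and 3631 CPM in IMQ+VEH and 1907 CPM in IMQ, so the IMQ+VEH pair differed widely in these mRNAs, led by collagen genes. Of the red blood cell precursor genes, Hba-a1 is listed at a count of 0 in all 4 libraries, whereas its deposited FPKM was 596 in IMQ+IDMF, 149.8 and 404 in IMQ+VEH and 685 in IMQ. The counts and FPKM of this gene thus disagree, and no level is read from its counts.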

How the data were processed

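RNA-seq of whole back skin from 4 libraries of imiquimod-treated mice was analysed. For each library the authors deposited a raw count and an FPKM value per gene symbol, as named per the file headers, for 20611 symbols. TopHat2, Cufflinks and HTSeq, and the build GRCm38 (mm10), are named in the submitters' processing notes. Not given in the sources used here are their versions, the strand setting, the annotation and the treatment of multiply mapped reads. Genes that overlap on opposite strands cannot be told apart by their reads without strand; in GENCODE M21 exons of 9 members overlap such a gene (2.84% to 29.3% of exon bases), namely Ccna2, Plk1, Cdc20, Kif20a, Kif4, Nusap1, Prc1, Ube2c and Cdc25c. Ccnb1, Ccnb2 and Kif4 have named pseudogenes, so their counts are less certain.

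The counts were fitted in R 4.3.3 with edgeR 4.0.16, with a mean for each group, TMM scaling and a two-sided quasi-likelihood test. The filter filterByExpr, run by group, left 15068 genes, and the Benjamini-Hochberg adjustment ran over all of them. The fit had 1 residual and 11.2 prior degrees of freedom per gene and a common biological coefficient of variation of 24.0%, and the spread of the IMQ+VEH pair stood in for that of the single libraries. The SE was obtained from F as the ratio of the log2 fold change to its root. Log2 differences between single libraries used a prior count of 2. IMQ+IDMF against IMQ has no replicate and no test. DESeq2 1.42.0, other scalings and filters, pooled groups and left-out libraries were alternatives. The script was tested on simulated data.

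The members and lists were chosen with earlier results of these data known. Named in full were the 2 members of highest mean FPKM per role, and the 3 highest and 3 lowest fold changes of each test. From each other list at most 3 genes with the largest change were named, among those with a mean log2 CPM of at least 1. Krt35, Krt71, Krt25, Krt85, Shh, Hoxc13, Lhx2, Msx2, Lef1, Krt75, Dlx3, Krt1, Krt10, S100a8, S100a9 and Hba-a1 fall outside that rule or were chosen after their values were seen. Cdk1, Ccnb2, Cdc20, Ttk, Espl1, Cenpf, Kif20a and Hmmr are also given in every library, chosen after their values were seen. Motifs were searched as letters on both strands of RefSeq promoters.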

Additional observations from a re-analysis of the deposited data

How the results depend on the processing

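No paired analysis was possible because IMQ and IMQ+IDMF have 1 library each. The 40 members kept 0 calls for IMQ+IDMF against IMQ+VEH under every alternative with a test, and all 40 were below IMQ in IMQ+VEH under every one. Without the filter on low counts 16 genes were called for IMQ+IDMF against IMQ+VEH (11 higher, 5 lower) and 424 for IMQ+VEH against IMQ, of which 1 was a member, Ccnb1 (adjusted p = 0.0436, edgeR). DESeq2 called 202 genes for IMQ+VEH against IMQ. With IMQ+VEH and IMQ+IDMF as 1 lotion group against IMQ, 55 were called (20 higher, 35 lower). From the deposited FPKM, an alternative chosen after seeing the data for IMQ+IDMF against IMQ and for single members, the member median for IMQ+VEH against IMQ was −0.49. With IMQ and IMQ+VEH pooled as 1 group, the median for IMQ+IDMF was 0.0062, with 20 members below 0 and 20 above. That pooling puts IMQ in the reference, which by construction lowers the values of members high in IMQ. Of these, 14 turned from above to below 0: Mki67 −0.20, Top2a −0.23, Ccna2 −0.056, Ccnb1 −0.33, Ccnb2 −0.068, Bub1 −0.097, Aurkb −0.028, Cenpa −0.16, Cenpf −0.28, Kif20a −0.31, Kif4 −0.044, Cdkn3 −0.14, Ndc80 −0.057 and Foxm1 −0.17. Leaving out an IMQ+VEH library gave medians of 0.07 to 0.38 for IMQ+IDMF against IMQ+VEH and −0.65 to −0.50 for IMQ+VEH against IMQ, as values with no test. Total counts in place of TMM gave a median over all genes of 0.07 for IMQ+VEH against IMQ and −0.52 over the members. For single members, 30 values moved by more than the spread of the IMQ+VEH pair with no change of sign. With 1 library in 2 of the 3 groups, the members' SE of 0.27 to 0.54 limit what could be called.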
